A study of Homo sapiens with 48 samples.

Results

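ASPC1 and CFPAC1, established human cell lines of pancreatic ductal adenocarcinoma (PDAC), are compared here as they were in the solvent control, with no active treatment. The members are the 6 RNA-seq libraries that the labels assign to DMSO, 3 of ASPC1 and 3 of CFPAC1, out of 30 RNA-seq libraries and 48 samples in all. They were taken by label alone. The study set out to examine the zinc finger protein ZNF274 in pancreatic cancer cells. ASPC1 and CFPAC1 were each given DMSO, 5 µM AZA, a control siRNA (siCTRL) or an siRNA against ZNF274 (siZNF274), and another PDAC line, Panc3.27, carried an empty vector or overexpressed ZNF274, with 3 libraries a group. The other 18 samples are chromatin profiles of ASPC1 cells with a control (shCTRL) or a ZNF274 hairpin after 9 days in 1 µg/ml doxycycline. The labels give no dose of DMSO, no time in DMSO and no passage number, and each line is 1 cell line from 1 tumour, so a difference between the lines is a difference between these cultures and not between kinds of tumour.

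PDAC arises in the exocrine pancreas, and loss of the tumour suppressors CDKN2A and SMAD4 is common in it. Its cells are often sorted by expression into a classical program, with gastrointestinal epithelial genes and the endodermal factors GATA6 and HNF4A, and a basal-like program, with squamous and keratin genes. ASPC1 was derived from ascites cells and CFPAC1 from a metastasis in a person with cystic fibrosis, the disease caused by mutation of the chloride channel gene CFTR.

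The 6 libraries held between 35579652 and 39903426 counts. Across genes, Pearson's r of the log2 levels was at least 0.996 between libraries of a line and between 0.826 and 0.831 across lines, so the libraries sorted by line. The deposited table has 35521 autosomal genes, of which 16661, among them 13373 protein-coding genes, had enough counts to be tested. Levels are given as CPM, the counts of a gene per 1000000 autosomal counts of the library after scaling. At a Benjamini-Hochberg adjusted p of 0.05 in the quasi-likelihood test of edgeR, 6154 genes (36.9%) were higher in ASPC1 and 6965 (41.8%) in CFPAC1. At least 2-fold differences passed the test for 2653 genes (15.9%) in the direction of ASPC1 and 3983 (23.9%) in that of CFPAC1, and those shares are the background for every list below. The median log2 fold change over all tested genes, ASPC1 over CFPAC1, was -0.06, and positive values mean higher in ASPC1 throughout. The libraries of the lines did not overlap for 6249 genes (37.5%) with ASPC1 above CFPAC1 and for 7090 (42.6%) with CFPAC1 above ASPC1. Mitochondrial genes took 2.35 to 3.15% of the counts in ASPC1 and 0.907 to 1.62% in CFPAC1. Genes with at least 1 count numbered 20342 to 20557 in the ASPC1 libraries and 22439 to 22806 in those of CFPAC1. CFPAC1 replicate 2 had the lowest mitochondrial share and stood apart from the other CFPAC1 libraries for several long genes. This is pointed out below for ARID1A, MUC16, MUC5AC, MUC4 and KMT2D only. Other genes, among them MAP1B, SLC4A4 and EGFR, were also highest in replicate 2 among the CFPAC1 libraries.

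**Figure D1:**
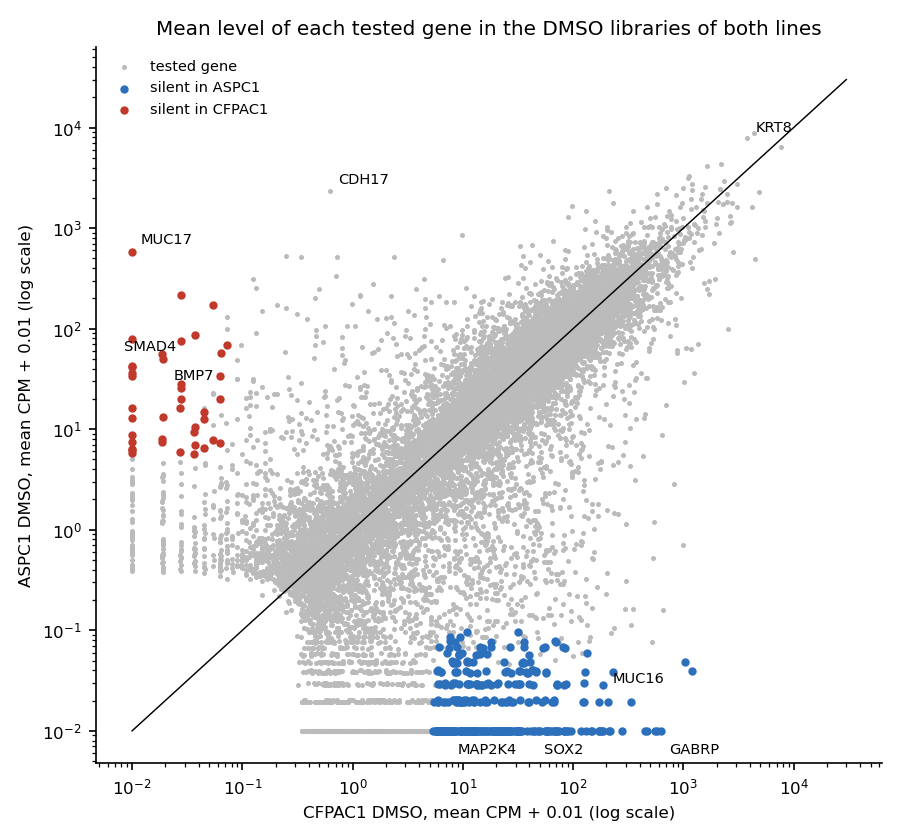
Each point is 1 tested autosomal gene, with its mean CPM plus 0.01 over the 3 CFPAC1 DMSO libraries on the x axis and over the 3 ASPC1 DMSO libraries on the y axis, both on log scales. Blue points are 352 genes with at most 3 counts in each ASPC1 library and at least 5 CPM in each CFPAC1 library, and red points are 40 genes of the reverse kind.

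Epithelial keratins were abundant in both lines. KRT19, the ductal keratin, measured 2134, 2323 and 2095 CPM in ASPC1 and 2425, 2560.1 and 2510.3 CPM in CFPAC1. KRT8, the simple epithelial keratin whose listed span overlaps KRT18, measured 7461, 8281 and 7795 CPM in ASPC1 and 3685, 3781 and 3848 CPM in CFPAC1, 2.08-fold higher in ASPC1. Markers of other cell types were mostly near 0. Of 16 leukocyte markers 6 reached the test, with summed levels of 287 to 303 CPM in ASPC1 and 92.2 to 103 CPM in CFPAC1, mostly from LYZ, which is also a classical PDAC gene, while CD2, CD3D, MS4A1 and TYROBP had 0 counts in all 6 libraries. Of 13 fibroblast markers 5 reached it (110 to 123 CPM summed in ASPC1 and 152 to 165 in CFPAC1), led by LUM in ASPC1 (113 CPM on average) and COL1A1 in CFPAC1 (150.1 CPM). Of 12 endothelial markers 4 reached it, with sums of 1.37 to 1.85 CPM in ASPC1 and 26.3 to 26.9 in CFPAC1, led by ESAM and KDR in CFPAC1, and the junction gene CDH5 was at 0 and 0.0263 CPM. Of 17 acinar markers 3 reached it, with sums of 19.4 to 25.8 CPM in ASPC1 and 7.43 to 8.84 in CFPAC1, mostly from BHLHA15, and the acinar-defining genes PTF1A, CLPS, PNLIP and GP2 had 0 counts in all 6 libraries. The part of other cell types in the results was not tested. In these bulk libraries fewer cells of a type and less RNA per cell cannot be told apart.

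Among PDAC driver and tumour suppressor genes, SMAD4 and MAP2K4 were each read in 1 line and not in the other, while CDKN2A and CDKN2B were read at similar levels in both. SMAD4 (ENSG00000141646.14, chromosome 18, 51028394 to 51085045) encodes the shared mediator of TGF-beta and BMP signals. It measured 44.6, 40.4 and 43 CPM in ASPC1 and had 0 counts in each CFPAC1 library. It was at least 535-fold higher in ASPC1, against a floor of 3 counts per library that is used for every such bound (edgeR, adjusted p = 4.05e-13). In all 12 CFPAC1 libraries of the series together SMAD4 had 1 count, and the vector libraries of Panc3.27 had 64.5 CPM of their autosomal total. The neighbour ELAC1 (ENSG00000141642.9, chromosome 18, 50967991 to 50988121), a transfer RNA processing nuclease gene, measured 2.88, 2.96 and 3.19 CPM in ASPC1 and had 0 counts in all 12 CFPAC1 libraries, at least 37.7-fold higher in ASPC1 (edgeR, adjusted p = 8.33e-09). On either side of this pair, ME2 measured 28.8, 25.3 and 27.8 CPM and MEX3C 57.5, 54.9 and 56.6 CPM in CFPAC1. Reads of RNA cannot tell a gene that is missing from the DNA from one that is present and not transcribed.

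MAP2K4 (ENSG00000065559.15, chromosome 17, 12020829 to 12143830), a kinase of the JNK stress pathway, showed the reverse. It had 0 counts in all 12 ASPC1 libraries of the series and measured 24, 23.7 and 22.3 CPM in the CFPAC1 DMSO libraries, at least 271-fold higher there (edgeR, adjusted p = 2.69e-12). Its neighbour ZNF18 (ENSG00000154957.14, chromosome 17, 11977439 to 11997475) also had 0 counts in all 12 ASPC1 libraries and measured 4.24, 4.64 and 4.54 CPM in CFPAC1 DMSO, at least 52-fold higher there. Panc3.27 had 124 CPM of MAP2K4.

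CDKN2A, the gene of p16 and ARF, measured 111, 119 and 107 CPM in ASPC1 and 133, 143 and 133 CPM in CFPAC1, 1.21-fold higher in CFPAC1 (edgeR, adjusted p = 7.74e-04). The groups did not overlap, although the difference was small. Its neighbour CDKN2B differed by a log2 fold change of 0.13 with an SE of 0.0597, which did not pass the test (edgeR, adjusted p = 0.0674). CDKN1A, another cell cycle inhibitor, was 2.85-fold higher in CFPAC1 (26.5 against 75.5 CPM on average). In Panc3.27 both CDKN2A and CDKN2B had 0 counts in the vector libraries. Alleles and mutations were not analysed here, so these levels say nothing of the proteins' function.

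Several other drivers were read in both lines. GATA6, an endodermal factor of the classical program, measured 59.6, 66.8 and 66.6 CPM in ASPC1 and 30.3, 30.6 and 33 CPM in CFPAC1, 2.05-fold higher in ASPC1. TGFBR2, the ligand-binding TGF-beta receptor, was 2.57-fold higher in ASPC1 (889 ± 36.2 against 346 ± 13 CPM, mean ± SD, n = 3), the activin receptor gene ACVR2A 2.76-fold, ATM 2.05-fold and STK11 2.03-fold. ERBB2 was 2.51-fold higher in CFPAC1 and the chromatin remodelling gene ARID1A 2.02-fold. ARID1A measured 174, 237 and 186 CPM in the CFPAC1 libraries, and without replicate 2, the highest, its log2 fold change went from -1.02 to -0.88. MYC differed by 1.13-fold only. In all, 6 of 34 tested members of this list were at least 2-fold higher in ASPC1 and 4 in CFPAC1, with a median log2 of 0.17. With upper quartile scaling of the libraries the first count was 3. ZNF274 (ENSG00000171606.18, chromosome 19, 58183029 to 58213562), the gene that the series targets, measured 15.5, 13.2 and 15.3 CPM in ASPC1 and 28.5, 28.6 and 29.4 CPM in CFPAC1, 1.96-fold higher in CFPAC1 (edgeR, adjusted p = 8.30e-08).

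The endodermal and ductal transcription factors split between the lines. Of 32 listed factors 30 were tested, and 11 were at least 2-fold higher in ASPC1 and 12 in CFPAC1, with a median log2 of 0.11. Both shares were above the 15.9% and 23.9% of all tested genes. SOX2 (ENSG00000181449.4, chromosome 3, 181711925 to 181714436), a factor of stem cells and foregut, had 0 counts in each ASPC1 library and measured 65.6, 70.1 and 75.8 CPM in CFPAC1, at least 819-fold higher (edgeR, adjusted p = 2.04e-13). FOXA2 (ENSG00000125798.15, chromosome 20, 22580998 to 22585455), a pioneer factor of endoderm, likewise went from 0 counts in each ASPC1 library to 23.7, 26.9 and 28.9 CPM in CFPAC1, at least 308-fold higher. The epithelial regulator GRHL2 was close to absent from the ASPC1 libraries as well, at 0, 0.0905 and 0.0569 CPM, and stood at 132, 133 and 132 CPM in CFPAC1. SPDEF, a factor of secretory epithelial cells, averaged 0.0863 CPM in ASPC1 and 32.4 CPM in CFPAC1.

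Other factors were higher in ASPC1. HNF4A (ENSG00000101076.18, chromosome 20, 44355700 to 44434596) measured 277, 297 and 288 CPM in ASPC1 and 30.4, 33.7 and 30.2 CPM in CFPAC1, 9.13-fold higher in ASPC1 (95% interval 8.28 to 10.1, edgeR, adjusted p = 3.82e-14). NR5A2, a nuclear receptor of acinar and hepatic cells, was 16.2-fold higher and HNF4G 5.4-fold. ONECUT3 measured 79.3, 91.1 and 85.4 CPM in ASPC1 and 0.402, 0.444 and 0.51 CPM in CFPAC1, 187-fold higher, while its paralog ONECUT2 went the other way, with 55.4 CPM in ASPC1 and 278 CPM in CFPAC1. GATA4 averaged 11.5 CPM in ASPC1 and 0.0611 CPM in CFPAC1, and CDX2, the master factor of intestine, 27 and 1.35 CPM. PDX1, which specifies the pancreas, was 3.1-fold higher in ASPC1. FOXA1, the paralog of FOXA2, was read in both lines and was 3.96-fold higher in CFPAC1. SOX9, the ductal SOX factor, was 1.92-fold higher in CFPAC1, and KLF5 did not pass the test (330.1 and 344 CPM, log2 -0.06, SE 0.0644, edgeR, adjusted p = 0.407).

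**Figure D2:**
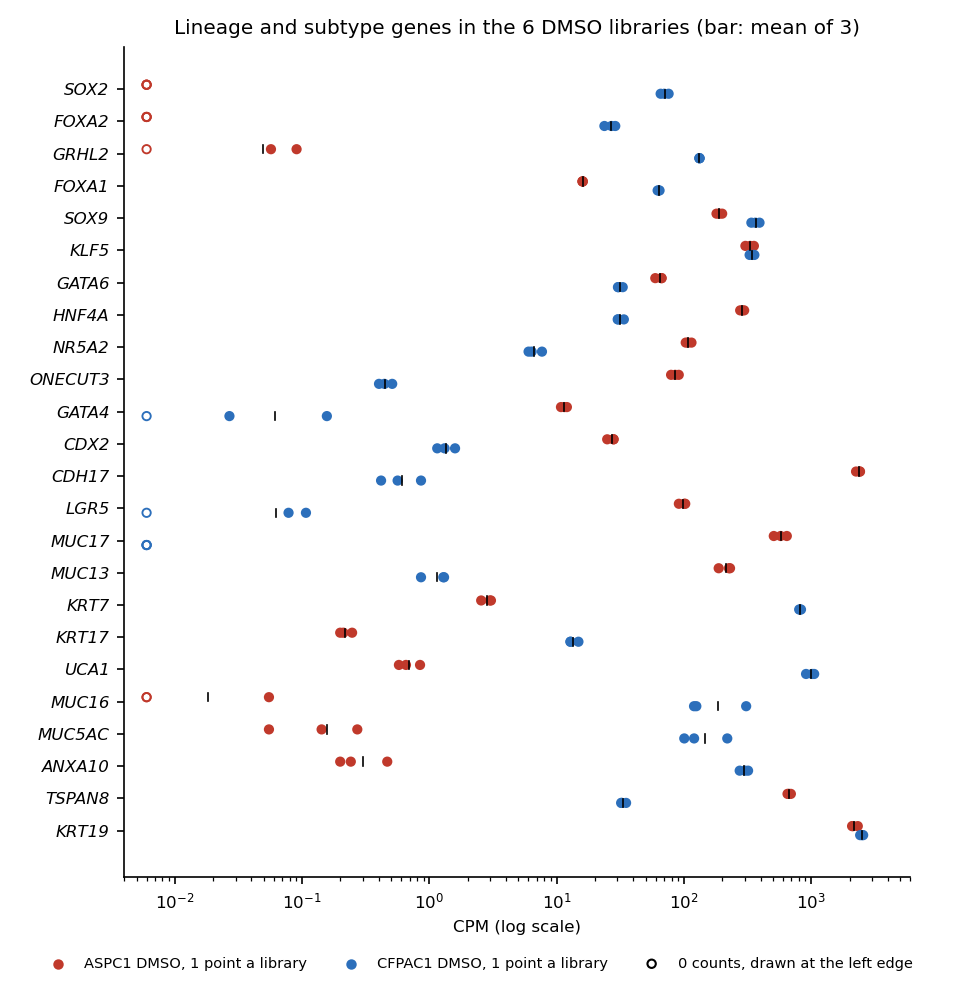
CPM of 24 lineage and subtype genes on a log axis, with 1 point for each of the 3 ASPC1 (red) and 3 CFPAC1 (blue) DMSO libraries, a bar at the mean of 3, and open points at the left edge for 0 counts. The lines do not overlap except for KLF5, and SOX2 and FOXA2 are open in all ASPC1 libraries while MUC17 is open in all CFPAC1 libraries.

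Intestinal epithelial genes were the list with the highest median in ASPC1. Of 28 listed genes 16 were tested, and 13 were at least 2-fold higher in ASPC1 and 3 in CFPAC1. The median log2 was 4.98, or 4.56 with genes at 0 in a line set to their bound. The untested members were low in both lines. CDH17, an intestinal cadherin, measured 2419, 2404 and 2252 CPM in ASPC1 and 0.563, 0.417 and 0.86 CPM in CFPAC1, 3834-fold higher (edgeR, adjusted p = 3.76e-16). LGR5 (ENSG00000139292.13, chromosome 12, 71439798 to 71586310), a WNT amplifier of intestinal stem cells, measured 102, 101 and 91.3 CPM in ASPC1 and 0.107, 0.0783 and 0 CPM in CFPAC1. LGALS4, an intestinal galectin, measured 323, 342 and 329 CPM in ASPC1 and 0.938, 0.574 and 0.591 CPM in CFPAC1, 471-fold higher. Each of these was high in all ASPC1 libraries and stayed at or under 1 CPM in CFPAC1. The brush border gene VIL1 was 71.3-fold higher in ASPC1, and the peptide transporter SLC15A1 averaged 427 CPM in ASPC1 and 33.6 CPM in CFPAC1. The exceptions were PIGR, the receptor that carries immunoglobulin A across epithelia (0.0672 and 12.4 CPM), KRT20 and CEACAM7, all higher in CFPAC1.

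GPA33 (ENSG00000143167.12, chromosome 1, 167052836 to 167166479), an intestinal surface antigen, measured 298, 319.7 and 308 CPM in ASPC1 and 0.134, 0.104 and 0.107 CPM in CFPAC1, 2600.1-fold higher in ASPC1 (edgeR, adjusted p = 2.76e-16). The 250 bases before its RefSeq start (GRCh38.p14, minus strand, chr1:167090378-167090627) are shown because they hold no CG dinucleotide, which here and below would be printed in capitals. This start lies inside the span that the deposited table gives. In the RefSeq promoter table, 93.6% of the 27305 genes have at least 1 CG in that window, with a median of 11 and quartiles of 3 and 23. The window has 2 matches to CAGGTG on either strand, a sequence that 17.5% of the genes hold, and none to TATAAA (11.1%).
GPA33: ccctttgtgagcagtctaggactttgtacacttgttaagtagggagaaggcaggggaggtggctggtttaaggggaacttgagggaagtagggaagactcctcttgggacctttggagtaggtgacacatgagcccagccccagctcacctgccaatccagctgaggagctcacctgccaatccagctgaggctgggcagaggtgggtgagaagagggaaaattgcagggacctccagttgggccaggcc

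The classical PDAC list did not move as 1 block. Of 24 genes 22 were tested, and all of them differed at least 2-fold, 13 higher in ASPC1 and 9 in CFPAC1, with a median log2 of 2.58. TSPAN8, a tetraspanin whose listed span touches LGR5, measured 652, 692 and 667 CPM in ASPC1 and 32.1, 32.5 and 35.1 CPM in CFPAC1, 20.2-fold higher in ASPC1. CEACAM6, a surface antigen of adenocarcinoma, was 3.8-fold higher in ASPC1, REG4 163-fold and LYZ 3.81-fold. Other members were higher in CFPAC1. ANXA10 (ENSG00000109511.12, chromosome 4, 168092537 to 168187736), an annexin of gastric epithelium, measured 0.467, 0.241 and 0.199 CPM in ASPC1 and 302, 274 and 319 CPM in CFPAC1, 966-fold higher in CFPAC1 (edgeR, adjusted p = 2.01e-15). AGR2 was 4.08-fold higher in CFPAC1, the trefoil gene TFF2 37.5-fold and the gastric protease gene CTSE 7.17-fold. TFF1 was low, at 0.467, 0.121 and 0.114 CPM in ASPC1 and 2.14, 1.59 and 2.01 CPM in CFPAC1, and its log2 fold change of -2.99 was -3.98 without ASPC1 replicate 1. The classical list shares CDH17, LGALS4, REG4 and KRT20 with the intestinal list.

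Basal-like PDAC genes were mostly higher in CFPAC1. Of 24 autosomal genes 21 were tested, and 16 were at least 2-fold higher in CFPAC1 and 1 in ASPC1, with a median log2 of -3.29, or -2.36 with bounds. KRT7 (ENSG00000135480.16, chromosome 12, 52232520 to 52252186), a keratin of duct epithelium, measured 2.55, 2.99 and 3.05 CPM in ASPC1 and 817, 805 and 831 CPM in CFPAC1, 286-fold higher (edgeR, adjusted p = 3.32e-16). UCA1, a long non-coding RNA of carcinomas, measured 0.577, 0.845 and 0.655 CPM in ASPC1 and 1055, 1018 and 911 CPM in CFPAC1. KRT17 measured 0.247, 0.211 and 0.199 CPM in ASPC1 and 12.8, 12.9 and 14.8 CPM in CFPAC1. FAM83A was the only member higher in ASPC1, at 355 CPM in ASPC1 and 119 CPM in CFPAC1. Of 20 tested squamous identity genes 12 were higher in ASPC1 and 5 in CFPAC1, of which 7 and 5 by at least 2-fold, with a median log2 of 0.47. TP63, which defines squamous cells, was low in both lines, at 0.522, 0.0603 and 0.313 CPM in ASPC1 and 0.241, 0.496 and 0.349 CPM in CFPAC1 (edgeR, adjusted p = 0.669). KLK10, a kallikrein protease, was 2.66-fold higher in ASPC1, while TFAP2C had 0 counts in each ASPC1 library and 7.48 CPM in CFPAC1. Among keratins 10 of 15 tested genes were at least 2-fold higher in CFPAC1 and 4 in ASPC1, the latter including KRT8 and KRT18 (2.52-fold). The count of 4 was 1 with upper quartile scaling and 0 in the siCTRL libraries. KRT81 and KRT86, near-identical copies, averaged 40.7 and 42.1 CPM in CFPAC1 and are uncertain as single genes.

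**Figure D3:**
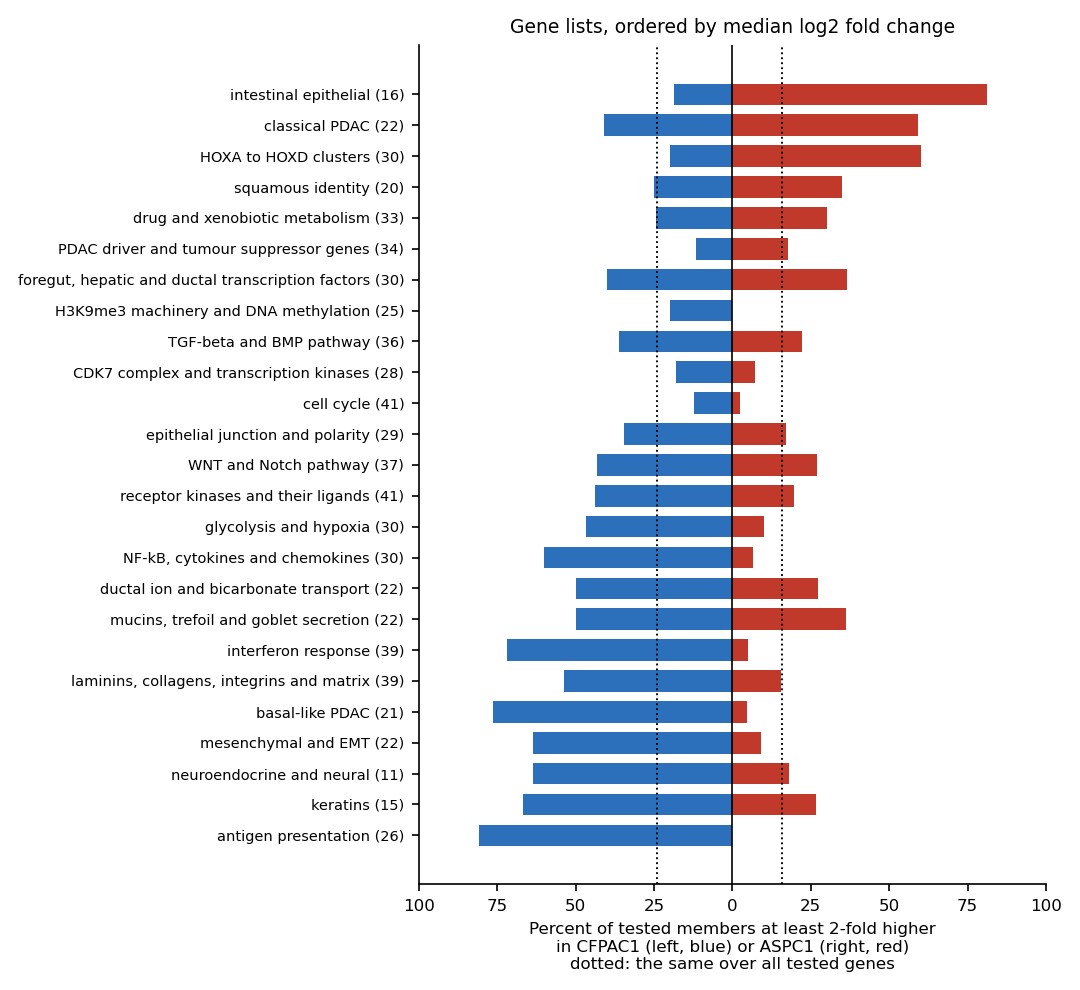
Percent of the tested members of each list (number tested in parentheses) that were at least 2-fold higher in CFPAC1 (blue, to the left) or ASPC1 (red, to the right) in edgeR's test, ordered by the median log2 fold change. Dotted lines mark the shares over all tested genes, 23.9% on the left and 15.9% on the right, and only lists with at least 10 tested members are drawn.

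Mesenchymal genes were mostly higher in CFPAC1, but the epithelial cadherin was higher there too. Of 28 mesenchymal genes 22 were tested, with 14 at least 2-fold higher in CFPAC1, 2 in ASPC1 and a median log2 of -2.38. CDH2 (ENSG00000170558.10, chromosome 18, 27932879 to 28177946), N-cadherin, had 0 counts in each ASPC1 library and 176, 169.9 and 165 CPM in CFPAC1, at least 1977-fold higher (edgeR, adjusted p = 1.14e-14). CDH1, E-cadherin, measured 133, 128 and 117 CPM in ASPC1 and 517, 538 and 499 CPM in CFPAC1, 4.11-fold higher in CFPAC1. EPCAM, an epithelial adhesion molecule, measured 879.8, 885 and 903 CPM in ASPC1 and 299, 285 and 327 CPM in CFPAC1, 2.93-fold higher in ASPC1. The intermediate filament gene VIM was abundant in both lines, with 2462 and 2152 CPM on average. TGM2, a transglutaminase, was 9.02-fold higher in CFPAC1, CAV1, the coat protein of caveolae, 16.4-fold and the receptor kinase AXL 5.36-fold. In the other direction S100A4 measured 771, 859 and 957 CPM in ASPC1 and 9.44, 7.75 and 12.4 CPM in CFPAC1. The repressors of E-cadherin differed little, ZEB1 by 1.47-fold and SNAI2 by 1.24-fold, both higher in ASPC1. Of 29 epithelial junction and polarity genes, all tested, 10 were at least 2-fold higher in CFPAC1 and 5 in ASPC1, with a median log2 of -0.38. The count of 5 was 2 with upper quartile scaling, 3 without ASPC1 replicate 3 and 2 without CFPAC1 replicate 1. RAB25, which directs apical recycling, averaged 0.058 CPM in ASPC1 and 56.1 CPM in CFPAC1, and the membrane protease PRSS8 was 15.6-fold higher in CFPAC1. The tight junction gene TJP3 was 9.5-fold higher in ASPC1.

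Mucins formed opposite sets. Of 32 mucin, trefoil and goblet genes 22 were tested, 11 at least 2-fold higher in CFPAC1 and 8 in ASPC1, with a median log2 of -1.63. MUC17 (ENSG00000169876.14, chromosome 7, 101020072 to 101058859), a membrane mucin of the intestinal brush border, measured 643, 575 and 508 CPM in ASPC1 and had 0 counts in each CFPAC1 library, at least 7215-fold higher in ASPC1 (edgeR, adjusted p = 4.27e-14). MUC13 measured 226, 230.3 and 188 CPM in ASPC1 and 1.29, 1.3 and 0.86 CPM in CFPAC1, MUC3A measured 87.4, 82.8 and 69.7 and 3.08, 3.73 and 3.09 CPM, and MUC5B averaged 17 and 2.52 CPM. MUC16 (ENSG00000181143.15, chromosome 19, 8848844 to 8981342), which carries the CA125 antigen, measured 0.0549, 0 and 0 CPM in ASPC1 and 120.1, 308 and 125 CPM in CFPAC1, a ratio of 9721 (counting interval 2691 to 80277). MUC5AC, a gastric gel-forming mucin, measured 0.0549, 0.272 and 0.142 CPM in ASPC1 and 101, 219 and 120.2 CPM in CFPAC1. MUC4 measured 0.796, 0.483 and 0.512 CPM in ASPC1 and 120.4, 231 and 107 CPM in CFPAC1. For these 3 long genes CFPAC1 replicate 2 was well above replicates 1 and 3, yet no ASPC1 library came near any CFPAC1 library. Without replicate 2 the log2 fold change was -9.47 for MUC5AC (from -9.87) and -7.56 for MUC4 (from -7.98). Without ASPC1 replicate 2 it was -10.49 for MUC5AC. The 2 counts of MUC16 in ASPC1 all lie in replicate 1, without which ASPC1 is at 0, so no fitted fold is given. MUC1, the ubiquitous membrane mucin, was 14.1-fold higher in CFPAC1.
The 250 bases before the RefSeq start of MUC17 (GRCh38.p14, plus strand, chr7:101019831-101020080) are shown as those of the gene with the highest level among the genes silent in CFPAC1. They hold 2 CG dinucleotides, in capitals, and no TATAAA or CAGGTG on either strand. At most 5 CG occur in this window in 38.7% of the genes of the table.
MUC17: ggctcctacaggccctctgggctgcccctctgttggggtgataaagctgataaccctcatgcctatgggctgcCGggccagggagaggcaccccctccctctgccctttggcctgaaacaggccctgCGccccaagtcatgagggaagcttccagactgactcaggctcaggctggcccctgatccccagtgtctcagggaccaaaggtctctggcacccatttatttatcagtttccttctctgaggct

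Genes of ductal ion and bicarbonate transport, the function that cystic fibrosis impairs, differed in the transporters used. Of 27 genes 22 were tested, 11 at least 2-fold higher in CFPAC1 and 6 in ASPC1. CFTR (ENSG00000001626.16, chromosome 7, 117287120 to 117715971) was low in both lines, at 0, 0 and 0.0285 CPM in ASPC1 and 0.295, 0.444 and 0.376 CPM in CFPAC1, a ratio of 39 with a counting interval from 6.62 to 1575 from 1 count in ASPC1 in all. SLC4A4, the basolateral sodium bicarbonate cotransporter, measured 0, 0 and 0.0285 CPM in ASPC1 and 162, 196 and 154 CPM in CFPAC1. AQP5, a water channel, measured 0.165, 0.0603 and 0.0285 CPM in ASPC1 and 196, 227 and 235 CPM in CFPAC1. Both were at or near 0 in each ASPC1 library. SLC12A2, the chloride-loading cotransporter, was 8.02-fold higher in CFPAC1. The calcium-activated chloride channel gene ANO1 was 3.03-fold higher in ASPC1, the sodium proton exchanger SLC9A3 131-fold, and CA9, a carbonic anhydrase induced by hypoxia, 179-fold.

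Homeobox genes of the HOXA to HOXD clusters, which record body position, were mostly higher in ASPC1. Of 39 genes 30 were tested, with 18 at least 2-fold higher in ASPC1, 6 in CFPAC1 and a median log2 of 1.26. Posterior members were among them. HOXA13, the last gene of its cluster, measured 131, 130.0 and 119.9 CPM in ASPC1 and 2.04, 1.9 and 2.07 CPM in CFPAC1, 63.2-fold higher (edgeR, adjusted p = 1.69e-15). HOXC10 measured 22, 21.2 and 18.2 CPM in ASPC1 and 0.0804, 0.104 and 0.107 CPM in CFPAC1, and HOXC11 averaged 23 and 0.0445 CPM. HOXB13 averaged 4.64 CPM in ASPC1 with 1 count in all in CFPAC1, a ratio of 524 (counting interval 93.6 to 20733). The non-coding RNAs beside these clusters followed, HOTTIP with 37.5, 32.9 and 31.1 CPM in ASPC1 and 0.0536, 0.0522 and 0.0537 CPM in CFPAC1, and HOTAIR with 17.4, 15.1 and 15.9 CPM in ASPC1 and 0 counts in each CFPAC1 library, at least 203-fold higher. HOTTIP and HOTAIR overlap their neighbours HOXA13 and HOXC11 in the table, so reads shared with them are possible. The reverse was seen for HOXB9, 19.4-fold higher in CFPAC1, and for HOXD4, with 0 counts in each ASPC1 library and 2.79, 2.77 and 3.01 CPM in CFPAC1.

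Antigen presentation was lower in ASPC1 at nearly every step. All but 1 of 27 genes were tested, 21 were at least 2-fold higher in CFPAC1 and none in ASPC1, with a median log2 of -3.53, where 23.9% of all tested genes were that much higher in CFPAC1. HLA-B, a class I heavy chain, measured 6.86, 7.72 and 7.97 CPM in ASPC1 and 275, 285 and 331 CPM in CFPAC1, 39.5-fold higher in CFPAC1 (edgeR, adjusted p = 8.80e-15). HLA-C was 15-fold higher and their light chain B2M 2.14-fold, and since HLA genes are near-identical and vary between people, their single values are uncertain. The peptide transporter TAP1 was 3.42-fold higher in CFPAC1 and the immunoproteasome subunit PSMB9 8.84-fold. Class II was close to absent from ASPC1. CD74 (ENSG00000019582.16, chromosome 5, 150400041 to 150412969), the class II invariant chain, measured 0.384, 0.573 and 0.569 CPM in ASPC1 and 538, 553 and 498 CPM in CFPAC1, 1039-fold higher in CFPAC1. CIITA, its transactivator, measured 0.714, 0.784 and 1.08 CPM in ASPC1 and 34.8, 40.7 and 30.1 CPM in CFPAC1. HLA-DRA averaged 0.208 and 108 CPM, and HLA-DPA1 and HLA-DPB1 had 0 counts in each ASPC1 library against 19.7 and 20.2 CPM in CFPAC1. CD274, the checkpoint ligand PD-L1, measured 0.0275, 0.0302 and 0 CPM in ASPC1 and 13.5, 13.4 and 13.2 CPM in CFPAC1, a ratio of 699.5 (counting interval 193 to 5781).

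Interferon response genes followed, with 28 of 39 at least 2-fold higher in CFPAC1, 2 in ASPC1 and a median log2 of -1.89. IFI27 measured 0.22, 0.211 and 0.199 CPM in ASPC1 and 117, 118 and 146 CPM in CFPAC1, and the antiviral GTPase gene MX1 0.961, 1.06 and 0.626 and 58.3, 62.8 and 70.5 CPM. OAS1, a sensor of double-stranded RNA, measured 138, 129.6 and 132 CPM in ASPC1 and 46.8, 48.1 and 51.5 CPM in CFPAC1, 2.73-fold higher in ASPC1, and OASL was 4.12-fold higher there. In the siCTRL libraries of the 2 lines their log2 fold changes were -0.51 and 0.19, and the list had 34 genes at least 2-fold higher in CFPAC1 and none in ASPC1. Of 34 NF-kB and cytokine genes 30 were tested, 18 at least 2-fold higher in CFPAC1 and 2 in ASPC1. IL6 had 0 counts in each ASPC1 library and 27.1, 23.6 and 25.6 CPM in CFPAC1, at least 295-fold higher. CXCL8, a neutrophil attractant, was 49.3-fold higher in CFPAC1, and IL18, an inflammasome cytokine, 3.48-fold higher in ASPC1.

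In the TGF-beta and BMP pathway genes differed in both directions, and 15 of the tested genes differed by less than 2-fold or did not pass the test. Of 37 genes 36 were tested, 13 at least 2-fold higher in CFPAC1 and 8 in ASPC1, with a median log2 of -0.09. TGFB2, a TGF-beta ligand, measured 9.2, 9.41 and 7.69 CPM in ASPC1 and 655, 696 and 579.8 CPM in CFPAC1, 73.4-fold higher in CFPAC1 (edgeR, adjusted p = 4.33e-15). BMP7 (ENSG00000101144.13, chromosome 20, 57168753 to 57266641), a BMP ligand, measured 47.1, 50.0 and 51.2 CPM in ASPC1 and 0, 0 and 0.0269 CPM in CFPAC1, a ratio of 5578 with a counting interval from 1001 to 220366. TGFB2 was high in CFPAC1 and BMP7 in ASPC1, each without overlap. The activin subunits INHBA (4.84 CPM in CFPAC1) and INHBB (23.4 CPM) and the activin trap FST (11.4 CPM) were read in CFPAC1 and averaged 0.00949, 0.0585 and 0.00949 CPM in ASPC1. Of the signal carriers SMAD3 was 1.73-fold higher in CFPAC1, SMAD4 was not read there as given above, and the inhibitor SMAD7, a target of the pathway, did not pass the test (14.9 and 16.4 CPM, edgeR, adjusted p = 0.133). ID1, a BMP target, was 1.48-fold higher in ASPC1.

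Growth factor receptors and their ligands also divided. Of 46 genes 41 were tested, 18 at least 2-fold higher in CFPAC1 and 8 in ASPC1. EGFR measured 1794, 1785 and 1637 CPM in ASPC1 and 545, 641 and 547 CPM in CFPAC1, 3.01-fold higher in ASPC1, and ERBB3 was 6.51-fold higher there. FGF19, an enteric growth factor that signals to liver, measured 209, 214 and 215 CPM in ASPC1 and 2.04, 2.58 and 1.99 CPM in CFPAC1, 96.2-fold higher in ASPC1. IGF2, an imprinted growth factor, measured 0, 0.0302 and 0 CPM in ASPC1 and 23.8, 29.4 and 25.2 CPM in CFPAC1. MET, the HGF receptor, differed by 1.33-fold. In the WNT and Notch list 16 of 37 tested genes were at least 2-fold higher in CFPAC1 and 10 in ASPC1. SFRP1, a secreted WNT antagonist, had 0 counts in each ASPC1 library and 145, 139 and 148 CPM in CFPAC1, at least 1676-fold higher, and the antagonist DKK1 was 2.19-fold higher in CFPAC1. Together with LGR5, its paralog LGR6 (196 and 4.55 CPM) and NKD1, a feedback target of WNT (9.68 and 0.167 CPM), were higher in ASPC1. NOTCH2 was 6.78-fold higher in CFPAC1.

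More of the extracellular matrix genes were at least 2-fold higher in CFPAC1, 21 of 39 tested against 6 in ASPC1, with a median log2 of -1.95. Basement membrane collagen IV was read in CFPAC1. COL4A1 (ENSG00000187498.16, chromosome 13, 110148963 to 110307157) had 0 counts in each ASPC1 library and 162, 181 and 188 CPM in CFPAC1, at least 2055-fold higher (edgeR, adjusted p = 3.99e-14). COL4A2 (ENSG00000134871.19, chromosome 13, 110305812 to 110513209), its partner chain, measured 0.165, 0.121 and 0.171 CPM in ASPC1 and 309.6, 355 and 376 CPM in CFPAC1, 2220.3-fold higher. These genes lie head to head, and the bases between their RefSeq starts (GRCh38.p14, written on the plus strand, chr13:110307158-110307283) are shown because 1 short stretch precedes both. The stretch of 126 bases holds 20 CG dinucleotides, in capitals. In the deposited table the 2 genes overlap, since it starts COL4A2 further to the left.
COL4A1 to COL4A2: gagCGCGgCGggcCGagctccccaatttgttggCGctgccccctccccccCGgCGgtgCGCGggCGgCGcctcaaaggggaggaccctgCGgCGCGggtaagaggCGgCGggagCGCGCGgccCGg

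Collagen VI behaved otherwise. COL6A2 (ENSG00000142173.16, chromosome 21, 46098112 to 46132848) had 0 counts in each ASPC1 library and 161, 180.5 and 205 CPM in CFPAC1, at least 2116-fold higher, and had 0 counts in all 12 ASPC1 libraries. Its neighbour and partner chain COL6A1 (ENSG00000142156.16, chromosome 21, 45981770 to 46005050) measured 355, 402 and 402 CPM in ASPC1 and 367, 421 and 418 CPM in CFPAC1, with a log2 fold change of -0.06 (SE 0.0698, edgeR, adjusted p = 0.475). THBS1, an activator of latent TGF-beta, was 34.8-fold higher in CFPAC1, and its paralog THBS2 averaged 464 CPM in ASPC1 and 40.6 CPM in CFPAC1. COL17A1, the hemidesmosome collagen, measured 1607, 1726 and 1628 CPM in ASPC1 and 95.7, 94.2 and 104 CPM in CFPAC1, 16.9-fold higher in ASPC1.

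Drug efflux pumps were split. ABCB1, the P-glycoprotein pump, had 0 counts in each ASPC1 library and 67.7, 64.9 and 70.9 CPM in CFPAC1, at least 788-fold higher. ABCG2 measured 258, 240.3 and 245 CPM in ASPC1 and 3.81, 3.16 and 4.35 CPM in CFPAC1, 65.6-fold higher in ASPC1, and ABCC2 averaged 186 and 5.15 CPM. Over 33 tested drug and xenobiotic genes 10 were at least 2-fold higher in ASPC1, among them CYP3A5 (6.18-fold), and 8 in CFPAC1, among them ALDH1A1 (1.46 and 234 CPM). Of 30 glycolysis and hypoxia genes 14 were at least 2-fold higher in CFPAC1 and 3 in ASPC1. LDHB, a lactate dehydrogenase subunit, had 0 counts in each ASPC1 library and 10.0, 9.89 and 13.5 CPM in CFPAC1, at least 129-fold higher, and the mitophagy gene BNIP3 averaged 0.0494 and 121 CPM. Neuroendocrine and neural genes were low or split, with 7 of 11 tested at least 2-fold higher in CFPAC1, led by UCHL1 (0 counts in each ASPC1 library, 19.8, 18.5 and 18.5 CPM in CFPAC1), and 2 in ASPC1, one of them ISL1 (39.1 and 9.97 CPM). Of 29 autosomal cancer-testis genes only 9 were tested, 4 at least 2-fold higher in CFPAC1 and 2 in ASPC1.

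Few genes of the cell cycle and transcription machinery differed 2-fold. Of 41 cell cycle genes 26 were higher in CFPAC1 and 8 in ASPC1, where 41.8% and 36.9% of all tested genes were. By at least 2-fold 5 were higher in CFPAC1 and 1 in ASPC1, with a median log2 of -0.27. The 1 was 0 with upper quartile or library size scaling and without CFPAC1 replicate 2, and the proliferation marker MKI67 averaged 691 and 908 CPM. TOP2A, the mitotic topoisomerase, was 2.96-fold higher in CFPAC1. Of 28 genes of transcription and cell cycle kinases 14 were higher in CFPAC1 and 12 in ASPC1. By at least 2-fold these were 5 and 2 (3 and 3 with siCTRL), the latter in DMSO being the mediator kinases CDK8 (4.55-fold) and CDK19 (3.67-fold). Of 25 tested genes of H3K9me3 and DNA methylation 12 were higher in CFPAC1 and 7 in ASPC1. By at least 2-fold 5 were higher in CFPAC1 and none in ASPC1 (2 without CFPAC1 replicate 3), with a median log2 of -0.02. The 5 included both de novo methyltransferases, DNMT3A (11.3, 10.7 and 11.6 CPM in ASPC1 and 45.3, 46.4 and 47.7 CPM in CFPAC1, 4.15-fold) and DNMT3B (4.02-fold), and TRIM28, the corepressor of KRAB zinc finger proteins (2.94-fold). SETDB1, the H3K9 methyltransferase that TRIM28 recruits, averaged 77.2 and 60.7 CPM.

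Genes read in 1 line and silent in the other were many in ASPC1 and few in CFPAC1. A gene was called silent in a line when it had at most 3 counts in each of its 3 libraries, a floor of 0.0783 to 0.0905 CPM, and at least 5 CPM in each library of the other line. Of 10743 genes with at least 5 CPM in each CFPAC1 library, 352 (3.28%) were silent in ASPC1, 334 of them protein-coding and 18 long non-coding. Of 10034 such genes in ASPC1, 40 (0.399%) were silent in CFPAC1, 31 protein-coding and 9 long non-coding. In 183 of the 352 and in 13 of the 40 the silent line had 0 counts in each DMSO library. Counts over all 12 libraries of the line were 0 for 63 of the 352 and for none of the 40. With any level of at least 1 CPM accepted as read, the numbers were 722 and 101.

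Among the 10 silent genes with the highest levels in CFPAC1 were MAP1B, BCAT1, GABRP, MAL2, EFEMP1, CDH6, TFPI2, STC2 and CCBE1, with means from 231 to 1204 CPM. MAP1B (ENSG00000131711.15, chromosome 5, 72107234 to 72209565), a microtubule protein of neurons, measured 0.0275, 0.0603 and 0 CPM in ASPC1 and 1078, 1398 and 1135 CPM in CFPAC1. BCAT1, the cytosolic branched-chain aminotransferase, measured 0.0275, 0.0603 and 0.0285 CPM in ASPC1 and 993, 1073 and 1015 CPM in CFPAC1. GABRP (ENSG00000094755.17, chromosome 5, 170763350 to 170814047), the pi subunit of the GABA receptor, had 0 counts in each ASPC1 library and 641, 648 and 599 CPM in CFPAC1, at least 7309.8-fold higher (edgeR, adjusted p = 3.64e-15). The matrix gene EFEMP1 was at least 6435-fold higher in CFPAC1. CDH6, kidney cadherin, had 0 counts in all 12 ASPC1 libraries and measured 435, 468 and 436 CPM in CFPAC1. DAPK1, a kinase of cell death (212 CPM), and GLUL, glutamine synthetase (187 CPM), also had 0 counts in each ASPC1 DMSO library.

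On the other side, MUC17 was followed by KCNQ3, MYO1A, LGALS2, LINC02864, ZNF521, TMEM176A, DCLK1, CNTFR and BMP7. MYO1A, the brush border myosin, measured 165, 175 and 172 CPM in ASPC1 and 0.0536, 0.0522 and 0.0269 CPM in CFPAC1. LGALS2, a galectin of the gut, measured 81.2, 90.5 and 88.8 CPM in ASPC1 and 0.0804, 0 and 0 CPM in CFPAC1. DCLK1, a tuft cell kinase, measured 60.2, 54.8 and 58.1 CPM in ASPC1 and 0.0536, 0.0261 and 0.0806 CPM in CFPAC1. MUC17, LGALS2 and MYO1A are known from gut epithelium. NR0B2, a repressor partner of nuclear receptors in liver, averaged 41.8 CPM in ASPC1, and ACKR3, a chemokine scavenger, 36.3 CPM, both with 0 counts in each CFPAC1 DMSO library.

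In the vector libraries of Panc3.27, 204 of the 352 genes silent in ASPC1 (58.0%) were read at 1 CPM or more in each library. Another 67 (19.0%) were silent. Of the 40 genes silent in CFPAC1 10 (25%) were read at that level and 19 (47.5%) were silent in Panc3.27. EFEMP1 measured 451 CPM there, whereas GABRP had 0 counts. CPM in these further groups are relative to the autosomal total without scaling. By the same limit of 3 counts, 318 of the 352 genes were also silent in ASPC1 and 32 of the 40 in CFPAC1 in the siCTRL comparison. Few genes reached a level of 1 CPM, which is well above that limit, under the other treatments. With 5 µM AZA only 3 of the 352 genes reached 1 CPM in each ASPC1 library, TFPI2 (1.61 CPM on average), NETO2 (1.61) and SNCG (1.47), and at 0.5 CPM PHGDH, SALL1 and TRPV4 joined them. With siZNF274 1 gene reached 1 CPM (SNCG, 3.05 CPM), with siCTRL none, and none of the 40 genes silent in CFPAC1 did so with AZA, siCTRL or siZNF274. These are counts over libraries and carry no test.

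**Figure D4:**
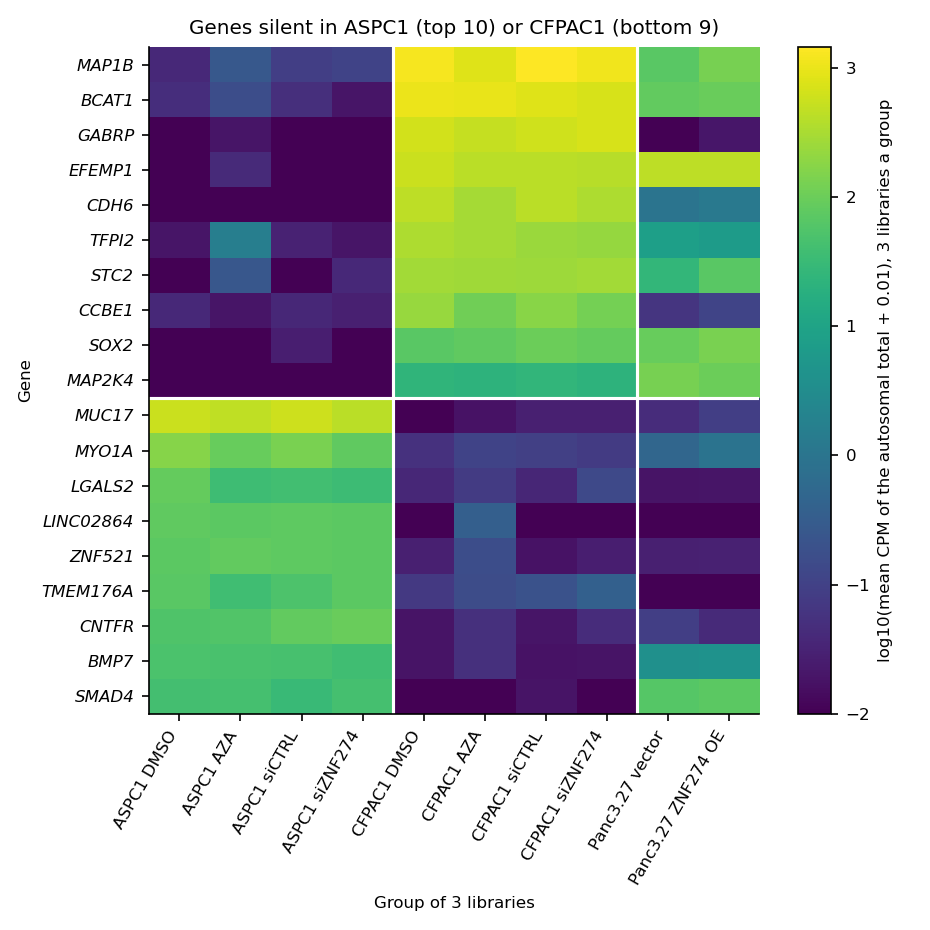
Mean CPM of the autosomal total, plus 0.01 and on a log10 colour scale, of 10 genes silent in ASPC1 (top) and 9 silent in CFPAC1 (bottom) in the 10 RNA-seq groups of 3 libraries each. Cells that are dark with DMSO stay below the other line in all 4 groups of the line, some are lighter with AZA, such as TFPI2 in ASPC1 (1.61 CPM), and Panc3.27 is dark for some genes of each kind.

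The windows of 2 silent genes are shown as examples that differ in CG, each 250 bases before the RefSeq start in GRCh38.p14 with CG in capitals. TFPI2 (minus strand, chr7:93890754-93891003), an inhibitor of serine proteases and the gene with 1.61 CPM under AZA, has 20 CG. GABRP (plus strand, chr5:170783475-170783724), with 1 count in all 12 ASPC1 libraries, has 3 CG, and its RefSeq start lies inside the span that the deposited table gives. Neither holds TATAAA or CAGGTG on either strand. COL4A1, with 20 CG in the shorter stretch of 126 bases printed above, averaged 0.0377 CPM with AZA in ASPC1. Whether CG before the start goes with the level under AZA was not tested. Over the whole set no promoter count is given, because only 274 of the 352 genes and 29 of the 40 were matched in the promoter table.
TFPI2: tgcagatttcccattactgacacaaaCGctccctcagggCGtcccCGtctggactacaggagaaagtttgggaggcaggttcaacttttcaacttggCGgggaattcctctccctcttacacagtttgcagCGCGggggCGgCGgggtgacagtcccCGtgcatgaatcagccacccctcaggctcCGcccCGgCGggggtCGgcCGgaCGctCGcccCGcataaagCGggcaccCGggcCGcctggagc
GABRP: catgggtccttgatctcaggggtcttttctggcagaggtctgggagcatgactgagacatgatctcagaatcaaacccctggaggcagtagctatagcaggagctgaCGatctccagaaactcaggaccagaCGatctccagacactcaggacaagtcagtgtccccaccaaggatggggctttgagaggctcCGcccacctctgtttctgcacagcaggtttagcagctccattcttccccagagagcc

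The genes silent in ASPC1 were set against the chromatin of ASPC1. H3K9me3 is a histone mark of repressed chromatin that KRAB zinc finger proteins recruit. The authors' list joins broad peaks of shCTRL and ZNF274 hairpin cells and names the groups of each peak, and those that name shCTRL, alone or with the other group, were used. They covered at least 50% of the gene body for 34 of the 352 genes (9.66%), against 1.99% of all genes with at least 5 CPM in each CFPAC1 library and 2.69% of all tested genes. Over all autosomal genes of the deposited table, read or not, 5.64% were covered to at least 50%. None of the 40 genes silent in CFPAC1 was covered to that extent, where the share among all genes with at least 5 CPM in each ASPC1 library was 1.27%. Any overlap with a peak was found for 53.7% of the 352, against 24.4% of the genes read in CFPAC1, and for 35% of the 40, against 22.4% of the genes read in ASPC1. Over all autosomal genes the share with any overlap was 28.2%. Longer genes overlap a peak more readily, and gene length was not accounted for. Zinc finger genes, taken as those named ZNF with a number, made up 22 of the 352, of which 19 were covered. Of 330 such zinc finger genes read in CFPAC1, 147 were covered in ASPC1, so most covered zinc finger genes were not silent by this rule. Without zinc finger genes, an alternative chosen after the data were seen, 15 of 330 genes (4.55%) were covered, against 0.643% of the other genes read in CFPAC1. The 4.55% was below the 5.64% of all autosomal genes, which include zinc finger genes and genes read in neither line. The 15 include MUC16 (86.3% of its body), the imprinted-region genes ATP10A (98.4%) and SNRPN, the collagen gene COL5A1, the homeobox genes IRX3 and TSHZ3, and TLR2, a receptor of bacterial lipoproteins. The cells profiled carried a hairpin and doxycycline, which the DMSO libraries did not.

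Silent genes were partly neighbours. Runs of at least 2 adjacent protein-coding genes, among genes read at 1 CPM or more in 1 line, were counted in each line. By that rule 613 of 11982 genes (5.12%) were silent in ASPC1 and formed 78 runs, and 61 of 11016 (0.554%) were silent in CFPAC1 and formed 3. Since silent genes were many in ASPC1 and few in CFPAC1, the number of runs is not comparable between lines. The longest run in ASPC1 held 8 clustered protocadherin genes on chromosome 5, from PCDHA7 to PCDHB6 (140834248 to 141153287), whose PCDHA members share exons and are uncertain as single genes. On chromosome 4 FGB, LRAT, MAP9, GUCY1A1 and GUCY1B1 (154563011 to 155807811) formed a run, and on chromosome 11 DSCAML1, FXYD2, FXYD6, TMPRSS13 and IL10RA (117427772 to 118003037). Chromosome 19 had 2 runs of 5 genes, ZNF93, ZNF486, ZNF737, ZNF66 and ZNF85 (19900913 to 20950697) and ZNF850, ZNF790, ZNF345, ZNF829 and ZNF568 (36714383 to 36998700). ZNF18 and MAP2K4 were a run of 2. HLA-DOA, HLA-DPA1 and HLA-DPB1, and the paralogs CST4, CST1 and CST2, were runs of 3. In CFPAC1 the runs were ELAC1 with SMAD4, SOX8 with SSTR5 and C1QTNF8, and the overlapping genes KLRC4-KLRK1, KLRC4 and KLRC2. Positions are hg38, as in the deposited table.

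The size and sign of the differences varied between chromosomes. Among tested protein-coding genes the median log2 fold change was lowest on chromosome 14 (-0.90), where 14 of 457 genes were at least 2-fold higher in ASPC1 and 192 in CFPAC1. Chromosome 15 followed with -0.56 (24 and 137 of 442) and chromosome 4 with -0.50 (28 and 178 of 514). The highest medians were those of chromosome 8 with 0.59 (149 and 86 of 474) and chromosome 13 with 0.42 (48 and 42 of 226). In windows of 10 megabases with at least 15 tested genes, 262 in all, the lowest median was that of chromosome 19 from 20000001 to 30000000 (-1.99, 27 genes, none at least 2-fold higher in ASPC1 and 15 in CFPAC1), a region of zinc finger genes. Next were chromosome 4 from 150000001 to 160000000 (-1.57, 34 genes), which holds the run from FGB to GUCY1B1, and chromosome 9 from 10000001 to 20000000 (-1.34, 16 genes). The highest were chromosome 18 from 10000001 to 20000000 (1.46, with 16 of 18 genes at least 2-fold higher in ASPC1 and none in CFPAC1), chromosome 18 from 1 to 10000000 (1.18) and chromosome 8 from 10000001 to 20000000 (1.07), which holds GATA4. DNA copy number was not analysed here.

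**Figure D5:**
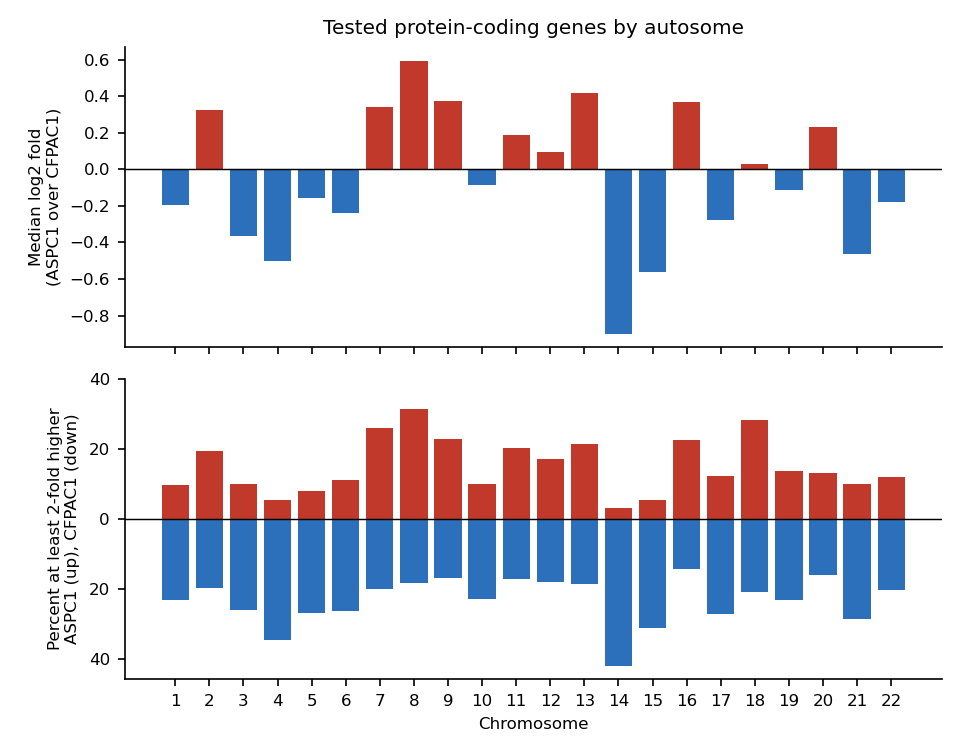
Upper panel, the median log2 fold change, ASPC1 over CFPAC1, of the tested protein-coding genes of each autosome. Lower panel, the percent of those genes at least 2-fold higher in ASPC1 (red, up) or CFPAC1 (blue, down), with chromosome 14 lowest and chromosome 8 highest in the upper panel.

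The comparison was repeated in the siCTRL libraries of both lines, 3 against 3, which were transfected and so differ from DMSO in handling. Of 16788 genes tested there, 2722 (16.2%) were at least 2-fold higher in ASPC1 and 4172 (24.9%) in CFPAC1. Of the 2653 genes at least 2-fold higher in ASPC1 in DMSO, 2150 were so with siCTRL, which is 81.0% of the DMSO list and 79.0% of the siCTRL list. Of the 3983 genes at least 2-fold higher in CFPAC1, 3482 were so with siCTRL, 87.4% and 83.5% of the lists. At 2-fold the intestinal list again had 12 genes higher in ASPC1 and 3 in CFPAC1, the basal-like list 1 and 15 and antigen presentation 0 and 23.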

How the data were processed

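Total RNA was measured by RNA-seq and histone marks by CUT&RUN. Per the labels' protocols, RNA was purified on columns and 500 ng of total RNA entered a stranded library kit with ribosomal RNA depletion. The authors deposited 1 table of raw counts per gene, with hg38 coordinates, and per the submitters' processing notes reads were aligned with STAR 2.7.10b. For the RNA-seq table, the counter, its strand setting and the annotation release were not given in the sources used here. Reads of overlapping, antisense or near-identical genes may therefore be split or shared. The H3K9me3 file holds broad peaks of ASPC1 cells with either hairpin and names the groups of each peak, per the file headers. Peaks that name shCTRL were used, and the score column, as deposited by the authors, is constant and was not used. Whether libraries were pooled for it is not stated.

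From the counts, sex-chromosome and mitochondrial genes were left out, low genes were removed with filterByExpr, and the lines were compared with edgeR 4.0.16 (TMM scaling, quasi-likelihood test, R 4.3.3) over the 6 DMSO libraries. Adjusted p-values are Benjamini-Hochberg over all 16661 genes tested. Calls use 0.05, and 2-fold calls also a fitted fold of at least 2. The procedure was run on simulated counts in which few genes differed, all of them well above the floor. Most tested genes differed in the data, so the simulation checks the code and not the calls made here. A count of 0 in a library allows up to 3 counts, and this floor and the counting intervals (95%, exact) cover counting error only. The design text calls the libraries biological triplicates, but no label says that they came from separate cultures, so the p-values cover only the spread among them, which may be technical. No 2 libraries agreed within sampling noise (chi-square per gene 6.13 to 13.9 within a line).

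The comparison and the lists were chosen with earlier results of these data known. Named genes were the drivers and ZNF274, the 10 largest fitted folds per direction among non-overlapping protein-coding genes at 10 CPM or more, the 10 highest silent genes per line, up to 5 largest changes and 3 highest levels per list, the genes of runs and the 3 highest and lowest windows. Other genes named were chosen after their values were seen. The siCTRL, AZA, siZNF274 and Panc3.27 libraries served for repeats and levels. Alternatives were other scalings, no filter, DESeq2 1.42.0, all 24 libraries of both lines, glmTreat, a replicate block, each library left out, and other limits for silent genes and peak cover. Sequences are from RefSeq (GRCh38.p14). Some items are not reported here.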

Additional observations from a re-analysis of the deposited data

Results flagged for a closer look

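For 6 genes the sign of the difference between the lines, at least 2-fold and called by edgeR in DMSO, was the opposite in the siCTRL libraries. The difference between the conditions was itself not tested. Of the log2 fold changes, ASPC1 over CFPAC1, that of SESN2, a stress-induced inhibitor of growth signalling, was -1.59 in DMSO and 2.19 with siCTRL. That of CHAC1, which degrades glutathione, went from -1.88 to 1.95. For the amino acid transporter SLC1A4 the values were -2.45 and 2.68, for ULBP1, a ligand of a natural killer cell receptor, -1.76 and 3.20, for the activin-type subunit INHBE -2.64 and 1.67, and for the long non-coding RNA SCTR-AS1 1.55 and -1.60.

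The levels moved mainly in ASPC1. As CPM of the autosomal total, SESN2 averaged 6.16 in ASPC1 with DMSO and 82.5 with siCTRL, against 18.7 and 19.4 in CFPAC1. CHAC1 averaged 2.56 and 37.7 in ASPC1 and 9.56 and 10.5 in CFPAC1, and SLC1A4 1.27 and 31.6 in ASPC1 and 7.06 and 5.29 in CFPAC1. The siCTRL libraries were transfected, and handling and time cannot be told apart from the siRNA.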

How the results depend on the processing

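The numbers of genes called kept within 1.5 times under each alternative run. Genes higher in ASPC1 ranged from 5715 (upper quartile scaling) to 6751 (no filter) and those higher in CFPAC1 from 6848 (without ASPC1 replicate 2) to 8095 (no filter). At least 2-fold higher were 2047 (glmTreat) to 3229 (no filter) in ASPC1 and 3430 to 5169 in CFPAC1. With 1 library left out the 2-fold counts were 2732 to 2800 and 4050 to 4235, and genes silent in ASPC1 numbered 357 to 373 and in CFPAC1 40 to 47. The definition of silence moved the counts. With 0 counts required in each library they were 183 and 13, with 10 counts allowed 490 and 86, and with 1 CPM accepted as read 722 and 101. H3K9me3 cover by any overlap was 53.7% of the genes silent in ASPC1 and 35% of those silent in CFPAC1. At 50% cover the share for ASPC1 was 9.66%, and 4.55% without zinc finger genes, an alternative chosen after the data were seen. At 0.5 CPM 6 genes silent in ASPC1 were read with AZA. Of 428 named genes tested, 5537 of 5564 values under the alternatives kept their side of the threshold and, where the test was passed, their direction. Changes of sign where neither fit passed the test are counted as kept. The only change of sign that passed the test was that of KMT2D, a histone methyltransferase gene, with a log2 fold change of -0.03 over all libraries and from -0.21 to 0.21 with 1 library left out, the highest without CFPAC1 replicate 2 (edgeR, adjusted p = 0.0299), and the cause was not tested. No scaling moved the median of all genes by more than 0.077 on the log2 scale.

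With the replicate number as a block, edgeR gave 6380 and 7196 genes higher in ASPC1 and CFPAC1 and 2661 and 3982 at least 2-fold. Of the DMSO calls 2145 and 3481 were then called with siCTRL. Same-numbered libraries of the lines deviated together with r = 0.47, 0.08 and 0.52 over 10971 genes. Each ASPC1 library correlated best with the CFPAC1 library of its own number. The pair numbered 2 was under 0.1 and no label ties the numbers. Whether same-numbered libraries were handled together therefore cannot be told, and the main fit has no block. Depth limits the statements on silent genes to 0.0783 to 0.0905 CPM per library.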

Other observations

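Genes next to CDKN2A and SMAD4, regions often lost in PDAC, were followed as a list. Of 27 genes 23 were tested, 8 at least 2-fold higher in CFPAC1 and 2, SMAD4 and ELAC1, in ASPC1. MLLT3, a regulator of transcription elongation on the short arm of chromosome 9, measured 0, 0.0905 and 0 CPM in ASPC1 and 42.1, 41.6 and 43.9 CPM in CFPAC1, a ratio of 1485 (counting interval 508 to 7202). MTAP, the gene beside CDKN2A that is often lost with it, was read in both lines, at 65.8, 63.3 and 64.6 CPM in ASPC1 and 124, 131 and 127 CPM in CFPAC1, 1.97-fold higher in CFPAC1.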
